A study of Mus musculus with 18 samples.

Results

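The genes described here build the lamellar body and process its surfactant: Abca3, Lamp3, Napsa, Ctsh, Slc34a2 and Lpcat1. All probe sets whose annotation gave 1 of these 6 symbols and no other were taken, which left 13 probe sets of 5 genes among the 45037 tested. Abca3 had 3 probe sets, Napsa 2, Ctsh 2, Slc34a2 1 and Lpcat1 5. Lamp3 had only a probe set shared with another gene, so no level of Lamp3 is given.

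Surfactant is the lipid and protein film that keeps alveoli open, and alveolar type II cells make it. These cells store it in lamellar bodies, which are lysosome-related organelles with stacked membranes, and release it by exocytosis. Phosphatidylcholine made by Lpcat1, an acyltransferase that remodels it into the dipalmitoyl form, is carried into the organelle by Abca3, a lipid transporter of its limiting membrane. Napsa (napsin A, an aspartic protease) and Ctsh (cathepsin H, a cysteine protease) trim the precursor of surfactant protein B on the way there. Lamp3 is a membrane glycoprotein of lysosomes and lamellar bodies. Slc34a2, the sodium-phosphate cotransporter at the apical face of type II cells, takes up phosphate. In rodents the surge of surfactant production falls in the last days of gestation.

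Lungs of BALB/c mouse fetuses were studied in 6 groups of 3 arrays. They were flutamide-treated males (18 flut), vehicle-injected males (18 m) and vehicle-injected females (18 f) at gestational day 18 (GD18), and the same at GD17 (17 flut, 17 m, 17 f). The dam, not the fetus, was injected every day from GD10, with 1 mg of flutamide, an antagonist of the androgen receptor, or with the vehicle. Each array carried whole-lung RNA of 3 fetuses of the same sex from distinct litters, so it is a pool and not an animal, and flutamide-treated females are not among the groups. Fewer cells of a type and less RNA per cell cannot be told apart in such RNA.

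Levels are log2 of the deposited intensity and are compared between arrays for a probe set, never between probe sets. Array medians lay between 81.2 and 84.8 on the linear scale. A probe set was called when its Benjamini-Hochberg adjusted p, from a limma fit of all 18 arrays, was under 0.05. Differences are log2, with the standard error (SE) of that fit or a 95% interval. Among type II cell genes other than the members, Sftpc, the surfactant protein C gene, was high on all arrays, between 13.92 and 14.72. Hc, another type II cell gene, was low at GD17, with means of 5.92 in 17 flut, 5.97 in 17 m and 6.83 in 17 f. Some pools stood apart. The mean log2 level of 8 exocrine pancreas genes was 10.22 in 17 m 3, 10.72 in 17 f 2 and 10.65 in 17 f 3, against 5.70 to 6.31 in the other 15 pools. The mean of 7 liver genes was highest in 18 m 3, at 12.16, and next highest in 18 flut 2. The pool labelled 18 flut 3 had a level of Xist, a transcript of the inactive X chromosome, of 11.95, against 8.15 and 8.08 in the other 18 flut pools and 12.33 to 12.51 in 18 f, with the Y-linked Eif2s3y at 7.21. Counts of called probe sets are also given without 5 of these pools, 17 m 3, 17 f 2, 17 f 3, 18 m 3 and 18 flut 3. The pool 18 flut 2 was kept.

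The gene bodies lie apart in the mouse genome (RefSeq, GRCm38.p6): Slc34a2 at chr5:53049353-53071664, Napsa at chr7:44572445-44586846, Ctsh at chr9:90054267-90076095, Lpcat1 at chr13:73467231-73516420, Lamp3 at chr16:19653381-19706365 and Abca3 at chr17:24351921-24410204. These genes moved together. For the 3 measured genes with a RefSeq window, 300 bases around a start site (250 before, 50 after) are therefore shown. All 3 windows are on the plus strand: Slc34a2 at chr5:53049103-53049402, Abca3 at chr17:24351773-24352072 and Lpcat1 at chr13:73466981-73467280. For Slc34a2 and Lpcat1 the start site is the first base of the gene body given above. For Abca3 it is a later base inside the gene body, so that window is not centred on base 24351921 in the same way. Capitals mark every match, on either strand, to 8 motifs. These were CCAAT, the TATA box TATAAA, the C/EBP palindrome TTGCGCAA, the FOXA motif TGTTTAC and the NKX2-1 core CTCAAG. The others were the androgen and glucocorticoid receptor half-site TGTTCT, the GC box GGGCGG and the KLF motif CACCC. No matches overlapped.
Slc34a2: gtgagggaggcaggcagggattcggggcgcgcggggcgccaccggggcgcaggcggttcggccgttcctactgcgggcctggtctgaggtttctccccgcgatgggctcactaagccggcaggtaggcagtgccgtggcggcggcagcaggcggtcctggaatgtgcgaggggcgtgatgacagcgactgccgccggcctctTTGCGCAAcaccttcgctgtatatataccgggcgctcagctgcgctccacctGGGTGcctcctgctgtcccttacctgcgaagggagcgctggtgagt
Abca3: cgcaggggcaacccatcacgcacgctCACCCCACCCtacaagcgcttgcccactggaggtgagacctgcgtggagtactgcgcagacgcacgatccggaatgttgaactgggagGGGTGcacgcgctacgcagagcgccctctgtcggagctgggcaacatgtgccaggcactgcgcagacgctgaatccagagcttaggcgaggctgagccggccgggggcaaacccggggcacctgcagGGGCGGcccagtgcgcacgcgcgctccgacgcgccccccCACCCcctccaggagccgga
Lpcat1: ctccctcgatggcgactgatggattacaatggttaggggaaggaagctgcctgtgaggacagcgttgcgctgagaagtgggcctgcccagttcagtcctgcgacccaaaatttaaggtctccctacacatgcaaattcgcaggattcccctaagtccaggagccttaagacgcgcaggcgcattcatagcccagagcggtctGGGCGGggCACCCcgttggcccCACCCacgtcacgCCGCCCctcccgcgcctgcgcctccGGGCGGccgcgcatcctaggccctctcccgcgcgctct

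The Slc34a2 window held the C/EBP palindrome at bases 203 to 210 of the window and 1 CACCC on the minus strand. C/EBP factors are regulators of lipid and surfactant genes, and the palindrome was in 0.183% of all 32851 RefSeq windows of this length. The Abca3 window held 1 GC box and 4 CACCC, and the Lpcat1 window 3 GC boxes and 2 CACCC. The GC box was in 35.7% and CACCC in 57.5% of all windows. None of the 3 windows held TGTTCT (19% of windows), CTCAAG (15.9%), TGTTTAC (3.65%), TATAAA (13.6%) or CCAAT (37.4%). The window of Lamp3, whose level was not measured alone, lies at chr16:19706316-19706615 on the minus strand and held 2 TGTTCT, 1 TGTTTAC and 2 CACCC. The 3 windows shown were richer in GC than the median window, at 68.7% for Slc34a2, 69.7% for Abca3 and 64% for Lpcat1, against 52.7%, and the Lamp3 window was poorer, at 43.7%. A match is only a run of letters, and no binding was measured.

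The day of gestation moved these genes most. Between GD17 and GD18 all 5 measured genes rose in flutamide-treated males, males and females by the probe set of highest mean, and no member probe set was called lower. In males 11 of 13 probe sets were called higher, where 12.4% of all probe sets were called higher and 25% in either direction. In females 13 of 13 were called higher, against 16.5% of all (33.6% in either direction). In flutamide-treated males 10 of 13 were called higher, against 9.61% of all (20.3% in either direction). Without the 5 pools that stood apart 10 were called in flutamide-treated males and 9 in males. Over all probe sets 20.5% and 18% were then called in either direction. Females are not counted in that fit, because it kept 1 pool of 17 f. With all 18 arrays the median difference over the 13 was 1.05 in flutamide-treated males, 1.18 in males and 1.25 in females. Over all probe sets it was -0.01, 0.01 and 0.02.

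Slc34a2 changed most. Its level was 11.85, 11.83 and 12.19 in 18 m, against 8.31, 9.50 and 7.88 in 17 m. In 18 f it was 12.52, 12.14 and 12.25, against 9.22, 8.27 and 8.22 in 17 f. In 18 flut it was 12.50, 12.12 and 12.55, against 9.92, 9.65 and 9.79 in 17 flut. Every GD18 pool was above every GD17 pool. The difference was 3.39 in males (SE 0.32, adjusted p = 2.9e-06), which is 10.5-fold, 3.73 in females (SE 0.32, adjusted p = 2.85e-07), which is 13.3-fold, and 2.61 in flutamide-treated males (SE 0.32, adjusted p = 2.52e-05), which is 6.10-fold.

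Napsa (1423590_at) followed. Its level was 11.32, 11.23 and 11.29 in 18 m, against 8.76, 9.63 and 8.65 in 17 m, and 11.47, 11.37 and 11.47 in 18 f, against 9.64, 9.01 and 9.10 in 17 f. In 18 flut it was 11.57, 11.29 and 11.64, against 10.09, 9.66 and 9.84 in 17 flut. The GD18 pools spread less than those of GD17, with an SD of 0.04 in 18 m, against 0.54 in 17 m. The difference was 2.27 in males (SE 0.21, adjusted p = 2.5e-06), 2.19 in females (adjusted p = 7.2e-07) and 1.64 in flutamide-treated males (adjusted p = 3.61e-05). The second probe set, 1430744_at, was dim (mean below the median of all probe sets). It ranged only from 4.96 to 5.49 over all arrays and was called higher in females alone, by 0.44 (adjusted p = 0.000172).

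Ctsh rose as well. Its 1418365_at measured 12.58, 12.57 and 12.48 in 18 m, against 10.83, 11.55 and 10.80 in 17 m, and 12.65, 12.59 and 12.65 in 18 f, against 11.24, 11.07 and 11.11 in 17 f. In 18 flut it was 12.72, 12.56 and 12.72, against 11.75, 11.48 and 11.63 in 17 flut. The GD18 pools lay within a narrow band and did not overlap with GD17. The difference was 1.48 in males (SE 0.14, adjusted p = 3.7e-06), 1.49 in females and 1.05 in flutamide-treated males, and the second probe set, 1443814_x_at, gave 1.54, 1.66 and 1.05. A name ending in _x_at marks probes that may also bind other transcripts, so its share of Ctsh signal is uncertain.

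Abca3 rose by 1.46 in males (SE 0.12, adjusted p = 1e-06), 1.63 in females and 1.31 in flutamide-treated males by 1451731_at. That probe set measured 10.49, 10.59 and 10.74 in 18 m, against 9.10, 9.45 and 8.90 in 17 m. In 18 f it was 10.79, 10.58 and 10.68, against 9.10, 8.96 and 9.09 in 17 f, and in 18 flut 10.89, 10.64 and 10.92, against 9.56, 9.49 and 9.47 in 17 flut. No pools overlapped between the days. The other Abca3 probe sets were also called in each sex and treatment, with differences between 0.75 and 1.67.

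Lpcat1 had the smallest of the called changes among the 5 genes. Its 1424460_s_at measured 12.51, 12.55 and 12.70 in 18 m, against 11.75, 11.82 and 11.51 in 17 m. In 18 f it was 12.75, 12.63 and 12.64, against 11.77, 11.63 and 11.64 in 17 f, and in 18 flut 12.77, 12.60 and 12.88, against 12.09, 12.03 and 12.05 in 17 flut. The difference was 0.89 in males (SE 0.09, adjusted p = 4.13e-06), 0.99 in females and 0.70 in flutamide-treated males. The 1424459_at and 1451359_at probe sets gave 1.02 and 1.28 in males. The 1420293_at and the dim 1420294_at gave 0.14 and 0.37, of which only the second was called (adjusted p = 0.0122).

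**Figure D1:**
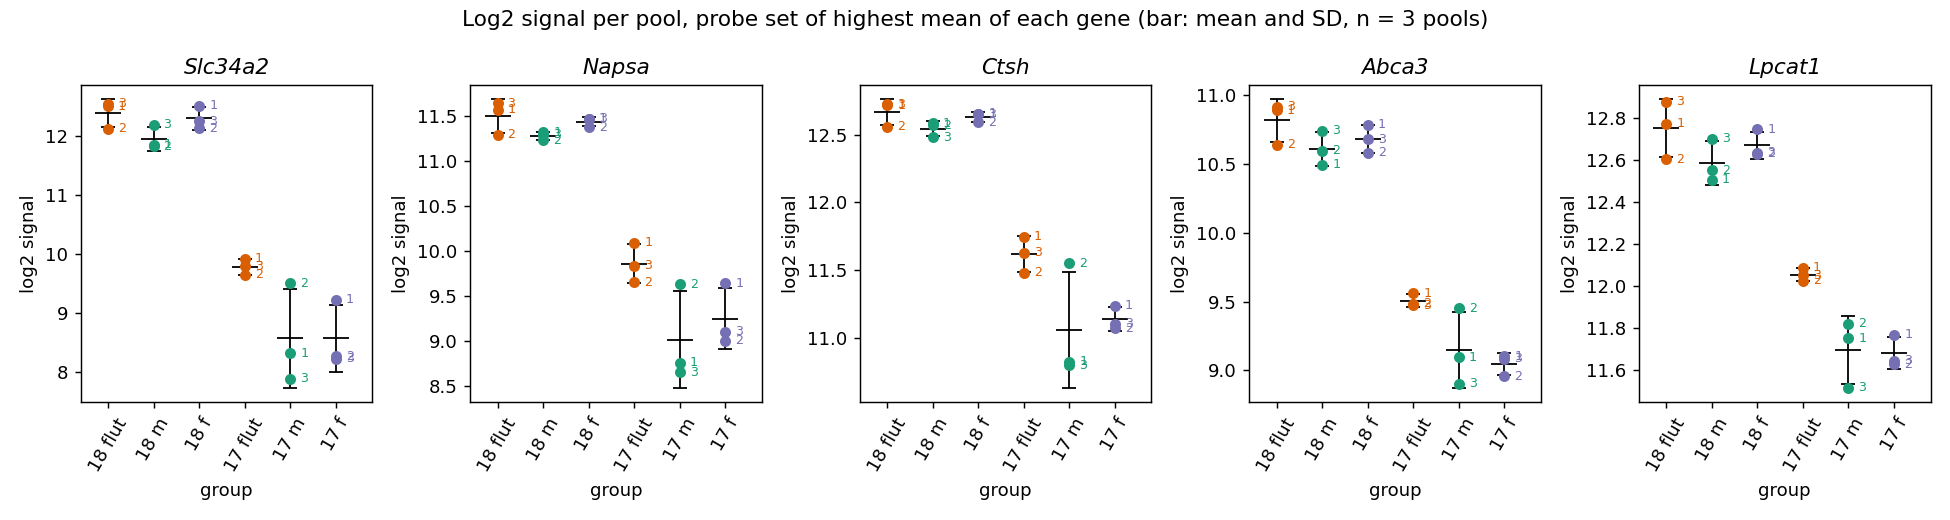
Log2 signal (y axis) of the highest-mean probe set of 5 genes in each of the 18 pools (points, numbered by pool) by group (x axis), with the mean and SD of 3 pools as bars. Every GD18 pool is above every GD17 pool of its gene, and 17 m 2 stands above the other 17 m pools.

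**Figure D2:**
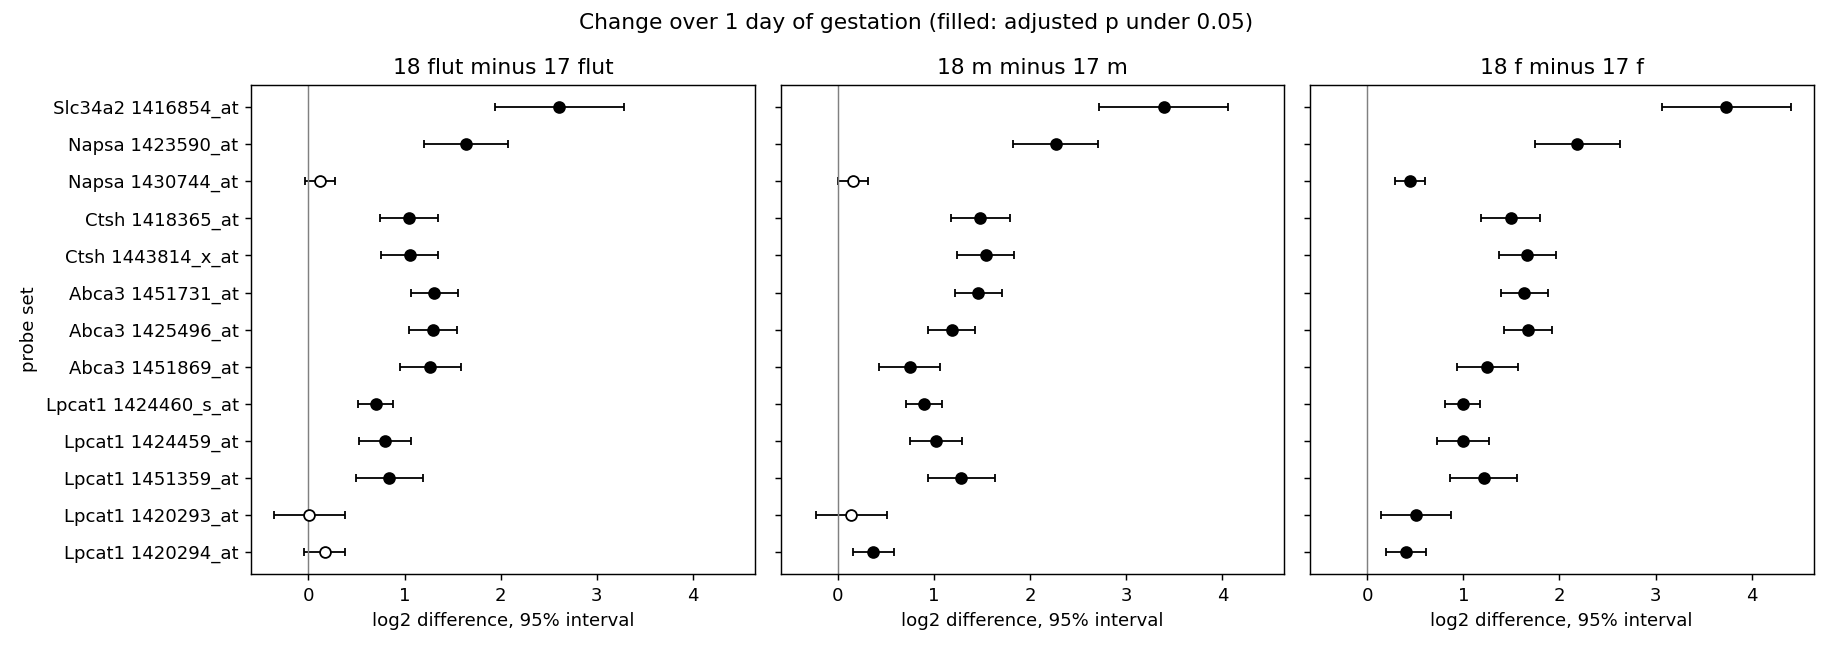
Log2 difference between GD18 and GD17 with its 95% interval (x axis) for the 13 member probe sets (y axis) in flutamide-treated males, males and females. Filled points were called, 10, 11 and 13 of 13, and Slc34a2 has the largest difference in each panel.

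Flutamide treatment went with higher levels of 4 of the 5 genes at GD17. Of the 13 probe sets 5 were called higher and 0 lower, where 1.28% of all probe sets were called higher and 3.55% in either direction. The 5 were those of highest mean for Slc34a2, Napsa, Ctsh and Lpcat1 and the second of Ctsh. At an unadjusted p under 0.05 there were 9. In 9 of 13 all 3 flutamide pools were above all 3 male pools, as for 14.6% of all probe sets. The median difference over the 13 was 0.36, against 0.02 over all probe sets.

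For Slc34a2 the 17 flut pools at 9.92, 9.65 and 9.79 averaged 9.78 ± 0.14 and the 17 m pools at 8.31, 9.50 and 7.88 averaged 8.56 ± 0.84 (SD, n = 3 each). All flutamide pools were higher, by a small margin over 17 m 2. The difference was 1.22 (SE 0.32, adjusted p = 0.0449), or 2.33-fold.

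Napsa averaged 9.86 ± 0.22 in 17 flut and 9.02 ± 0.54 in 17 m (SD, n = 3 each), and the lowest flutamide pool, at 9.66, was just above 17 m 2, at 9.63. The difference was 0.84 (SE 0.21, adjusted p = 0.0359). Ctsh averaged 11.62 ± 0.13 in 17 flut and 11.06 ± 0.43 in 17 m, and its pools overlapped, because 17 flut 2, at 11.48, was below 17 m 2, at 11.55. The difference was 0.56 (SE 0.14, adjusted p = 0.0425). The second Ctsh probe set measured 11.38, 11.09 and 11.11 in 17 flut, against 10.23, 10.82 and 10.14 in 17 m, without overlap, a difference of 0.80 (SE 0.14, adjusted p = 0.0077).

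Lpcat1 was 0.36 higher (SE 0.09, adjusted p = 0.0347), with 12.05 ± 0.03 in 17 flut and 11.69 ± 0.16 in 17 m (SD, n = 3 each). Its other 4 probe sets had all flutamide pools above all male pools, with differences between 0.18 and 0.57, and none was called. Abca3 was not called: 1451731_at averaged 9.51 ± 0.05 in 17 flut and 9.15 ± 0.28 in 17 m, a difference of 0.36 (SE 0.12, adjusted p = 0.0973). Its probe sets disagreed in sign, with 0.26 for 1425496_at (adjusted p = 0.228) and -0.32 for the dim 1451869_at (adjusted p = 0.252).

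By the probe set of highest mean, the flutamide difference at GD17 was smaller than the male change of 1 day in all 5 genes. It came to 24.4% of the day change for Abca3, 35.9% for Slc34a2, 37.3% for Napsa, 37.7% for Ctsh and 40.3% for Lpcat1. In 2 other probe sets the flutamide difference was the larger, 0.35 against a day change of 0.14 in Lpcat1 1420293_at and 0.19 against 0.16 in Napsa 1430744_at, and none of these 4 values was called. For Ctsh 1443814_x_at it came to 51.8%. Both values share the 17 m pools, so these shares move together with the level in 17 m.

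Of the 5 calls at GD17, 4 were close to the threshold and depended on single pools. Without 17 m 2 the Slc34a2 difference was 1.69 (adjusted p = 0.00368) and 7 probe sets were called, against 2.3% of all probe sets. Without any 1 of the other pools of 17 flut and 17 m, where the share over all probe sets was not counted, only 1 was called. That 1 was the Ctsh 1443814_x_at, called under all 12 alternatives, with adjusted p between 0.000379 and 0.0441. Without the 5 pools that stood apart 3 were called, with 8.18% of all probe sets, and Slc34a2 (0.88, adjusted p = 0.0559), Napsa (0.66, adjusted p = 0.0612) and Ctsh 1418365_at (0.43, adjusted p = 0.113) lost their call.

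At GD18 no member probe set was called between flutamide-treated males and males, where 3.95% of all were called (limma), and 2 had an unadjusted p under 0.05. All flutamide pools were above all male pools in 2 of 13, Abca3 1425496_at and Ctsh 1443814_x_at, as for 9.26% of all probe sets. Slc34a2 averaged 12.39 ± 0.23 in 18 flut and 11.96 ± 0.20 in 18 m (SD, n = 3 each), a difference of 0.43 with an interval of -0.24 to 1.11 (adjusted p = 0.517). For Napsa the difference was 0.22 (-0.22 to 0.66), for Ctsh 0.12 (-0.18 to 0.43), for Lpcat1 0.16 (-0.02 to 0.35) and for Abca3 0.21 (-0.04 to 0.45). Abca3 1425496_at came nearest to a call, with 9.28, 8.98 and 9.22 in 18 flut, against 8.87, 8.84 and 8.66 in 18 m, a difference of 0.37 (adjusted p = 0.1). Without the pool labelled 18 flut 3 the count stayed at 0, and without 18 m 3 it was 1. Without the 5 pools that stood apart it was 0, against 3.32% of all probe sets.

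The test of the GD18 flutamide difference minus that at GD17 called 0 of 13, where 0.364% of all were called (limma), and 4 had an unadjusted p under 0.05. The estimates were negative in 11 of 13, with -0.78 for Slc34a2 (-1.73 to 0.16, adjusted p = 0.514), -0.63 for Napsa (-1.25 to -0.01), -0.44 for Ctsh (-0.87 to -0.01), -0.20 for Lpcat1 and -0.15 for Abca3. That the GD17 difference passed and the GD18 one did not is therefore not shown to be a difference between the days.

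Sex gave no call on either day. The GD17 comparison shares its 17 m pools with that of flutamide. At GD17 0 of 13 were called between males and females, where 4.1% of all were (limma), and 2 had an unadjusted p under 0.05, Abca3 1425496_at and 1451869_at. Slc34a2 averaged 8.56 ± 0.84 in 17 m and 8.57 ± 0.57 in 17 f (SD, n = 3 each), a difference of -0.0036 with an interval of -0.67 to 0.67. Napsa differed by -0.23 (-0.67 to 0.21), Ctsh by -0.08 (-0.38 to 0.22), Lpcat1 by 0.02 (-0.17 to 0.20) and Abca3 by 0.10 (-0.14 to 0.35). The 1451869_at probe set of Abca3 had 5.20, 5.62 and 5.18 in 17 m, against 4.78, 4.88 and 4.87 in 17 f, without overlap, a difference of 0.49 (adjusted p = 0.0854).

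At GD18 0 of 13 were called between males and females, where 1.85% of all were (limma), and 1 had an unadjusted p under 0.05. Male pools lay wholly below female pools in 5 of 13, as for 7.33% of all probe sets. These were both Napsa and both Ctsh probe sets and Abca3 1425496_at. For Napsa 1423590_at the male pools at 11.32, 11.23 and 11.29 were below the female pools at 11.47, 11.37 and 11.47, and the difference was -0.16 (-0.59 to 0.28). Slc34a2 differed by -0.35 (-1.02 to 0.32), Ctsh by -0.09, Lpcat1 by -0.08 and Abca3 by -0.07. The test of the GD18 sex difference minus that at GD17 called 0 of 13, against 6.54% of all (limma), and 3 had an unadjusted p under 0.05. Without the 5 pools that stood apart the count between the sexes at GD18 was 0, against 5.16% of all probe sets. At GD17 that fit kept 1 pool of 17 f and is not counted.

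Flutamide-treated males were also set against females at GD17, a comparison that shares its 17 flut pools with the one above. Of the 13 probe sets 6 were called higher, where 2.66% of all were called higher and 4.39% in either direction. All flutamide pools were above all female pools in 12 of 13, against 18.9% of all. Slc34a2 was 1.22 higher (SE 0.32, adjusted p = 0.0425), with 9.92, 9.65 and 9.79 in 17 flut, against 9.22, 8.27 and 8.22 in 17 f. Abca3 1451731_at was 0.46 higher (adjusted p = 0.0386), Lpcat1 0.37 higher (adjusted p = 0.0293) and Ctsh 1443814_x_at 0.74 higher (adjusted p = 0.0131). Napsa 1423590_at differed by 0.61 (adjusted p = 0.0959). Exocrine pancreas genes were high in 17 f 2 and 17 f 3, and without the 5 pools that stood apart 0 probe sets were called, against 0.0711% of all (limma). That fit kept 1 pool of 17 f.

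**Figure D3:**
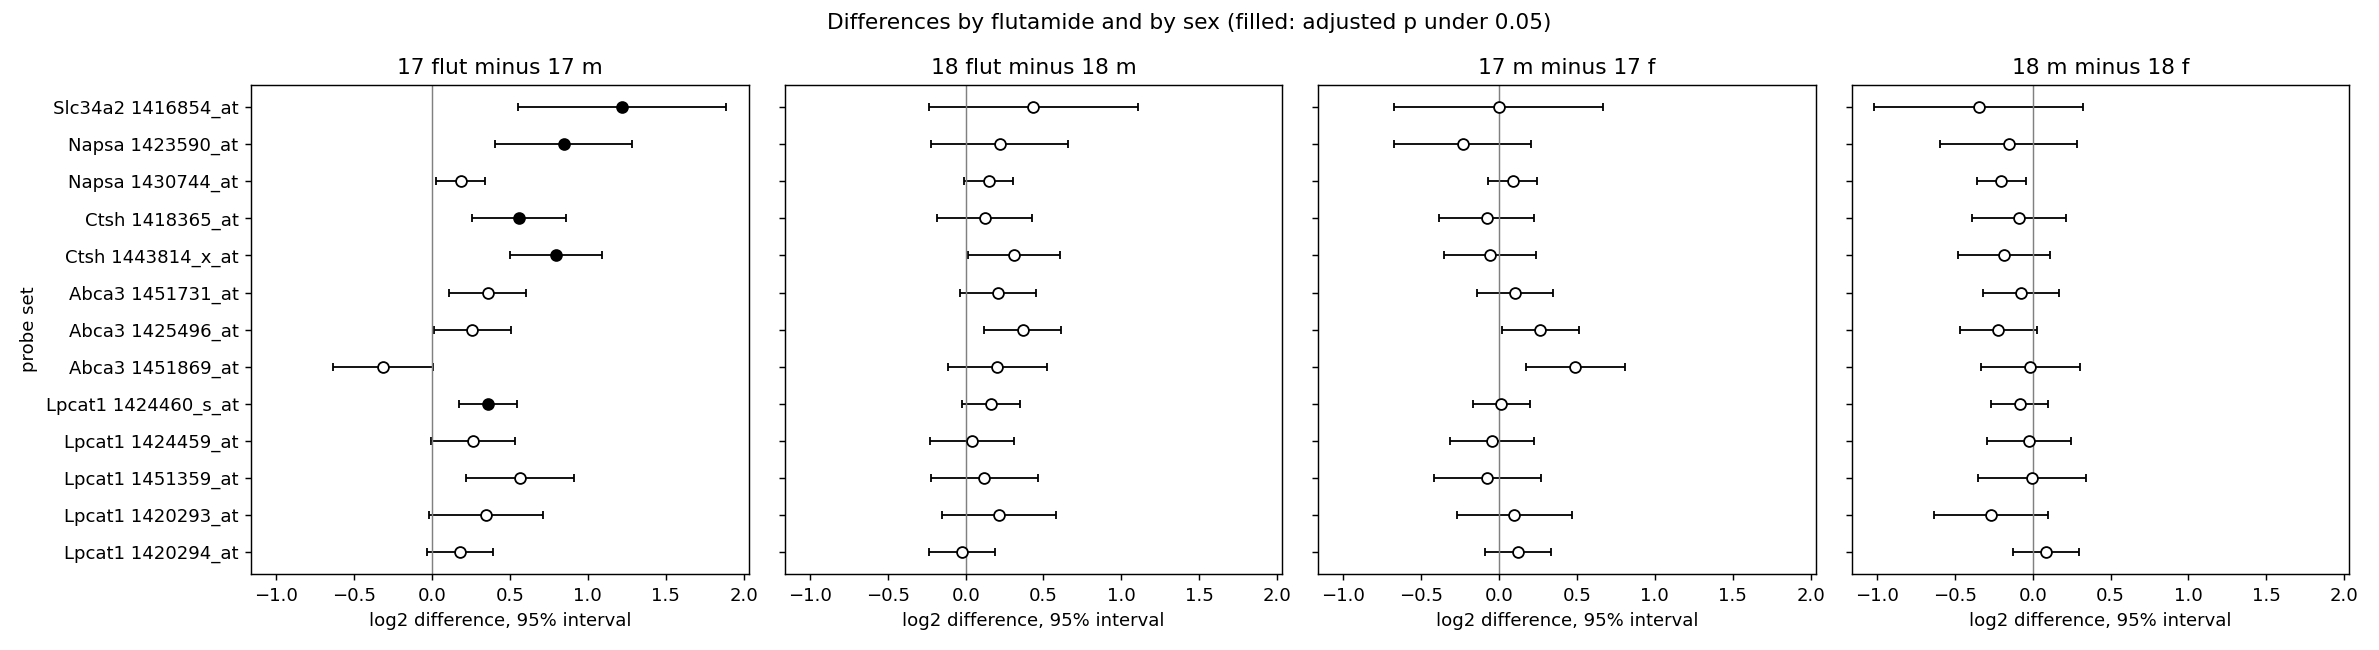
Log2 difference with its 95% interval (x axis) for the 13 member probe sets (y axis) by flutamide and by sex at each day. The 5 filled points, all in the panel of flutamide at GD17, were called.

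The 5 genes deviated together in some pools and with mixed signs in others. In 17 m 1 Lpcat1 was above its group mean by 0.06 and the others below. In 18 m 3 Ctsh was below it, at -0.06, and the others above. In 17 m 2 every gene was above its group mean, Slc34a2 by 0.94, Napsa by 0.62, Ctsh by 0.49, Abca3 by 0.30 and Lpcat1 by 0.12, and in 17 m 3 all 5 were below it, with Slc34a2 at -0.69. In 17 f 1 all 5 were above it, Slc34a2 by 0.65. The mean deviation over the 5 genes was 0.49 in 17 m 2 and -0.35 in 17 m 3, and within 17 flut it lay between -0.11 and 0.12. Exocrine pancreas genes were high in 17 m 3, 17 f 2 and 17 f 3, where the members were below the group mean on average, and not in 17 m 1, whose members were also below it, at -0.15 on average. Their part in the member levels was not tested. Between the 5 genes, by the probe sets of highest mean, Pearson's r over 18 arrays was 0.978 to 0.996 in 10 pairs. With group means taken off it was 0.545 to 0.942. For other member probe sets that r was as low as -0.27, between Abca3 1425496_at and Lpcat1 1420294_at. These arrays share groups, days and normalization, so r is given as a description.

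**Figure D4:**
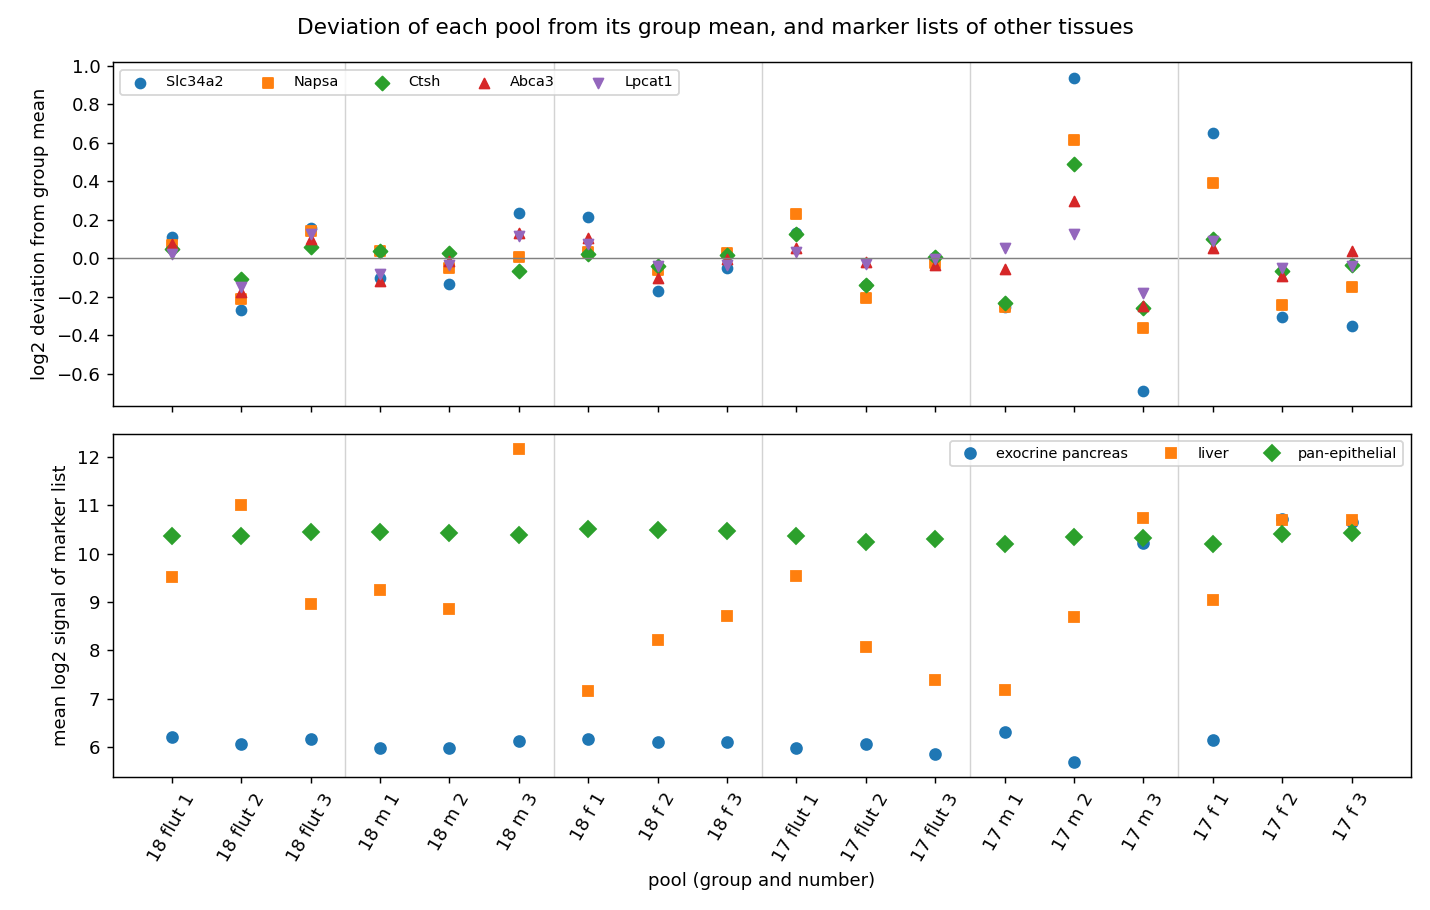
Upper panel: log2 deviation of 5 genes from their group mean (y axis) in each pool (x axis). Lower panel: mean log2 signal of the exocrine pancreas, liver and pan-epithelial marker lists. All 5 genes are above 0 in 17 m 2 and below 0 in 17 m 3, and pancreas genes exceed 10 in 17 m 3, 17 f 2 and 17 f 3.

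The genes whose profile over the 18 arrays was most like the mean of the 5 members were Ager, a marker of alveolar type I cells (r = 0.998), Scgb1a1 and Scgb3a2, secretory proteins of airway club cells, Sftpa1 and Sftpb, surfactant protein genes, Hp, the haptoglobin gene, Cxcl15, a lung chemokine, Dpep1, a dipeptidase, AU021092 and, as the tenth, Emp2, a membrane protein (r = 0.995), among 18188 genes. With group means taken off, Dpep1 (r = 0.984) and Ager (r = 0.980) led, so they followed the pools as well as the groups. These genes were picked on the same arrays, 17 flut and 17 m included. Their group differences are therefore not separate support for those of the members. Sftpa1 and Sftpb appear again below as surfactant protein genes. With Cxcl15, Ager, Scgb1a1 and Scgb3a2 they are also counted among the cell markers below.

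The 4 surfactant protein genes, of which B and C encode the peptides packed into lamellar bodies, showed the same order of days. In males Sftpd rose by 3.95, Sftpa1 by 2.78, Sftpb by 1.58 and Sftpc by 0.54, and all 4 were called higher in males, in females and in flutamide-treated males. By flutamide at GD17 none of the 4 was called (limma) by its probe set of highest mean, the only 1 counted. The differences were 0.99 for Sftpd (adjusted p = 0.0649), 0.90 for Sftpa1 (adjusted p = 0.0525), 0.49 for Sftpb (adjusted p = 0.079) and 0.26 for Sftpc (adjusted p = 0.0588). All 4 had unadjusted p between 0.00199 and 0.0046. Sftpa1 measured 10.06, 9.70 and 9.77 in 17 flut, against 8.76, 9.61 and 8.46 in 17 m, so the same pool, 17 m 2, was nearest to the flutamide pools.

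In this and the lists below, each gene counts by its probe set of highest mean. Of 33 measured lamellar body assembly and secretion genes, 4 were called higher by flutamide at GD17 and 0 lower, where 1.28% of all probe sets were called higher. These were Rab27a, a GTPase of granule exocytosis, by 0.57 (adjusted p = 0.0085), Hps1, a subunit of an organelle-biogenesis complex, by 0.45, Myo5c, a myosin motor, by 0.45, and P2ry2, a nucleotide receptor that triggers surfactant secretion, by 0.32. P2ry2 was 0.31 lower in 17 m than in 17 f (limma, adjusted p = 0.0377). Its level was low, with means of 4.99 in 17 flut, 4.66 in 17 m and 4.97 in 17 f. Both P2ry2 differences share the 17 m pools. Between the days, 8 were called higher and 3 lower in males, where 25% of all probe sets were called in either direction, and 7 higher and 9 lower in females, where 33.6% were. In females the list thus went both ways, while no member probe set was called lower. Adgrf5, an adhesion receptor that limits the surfactant pool, rose by 1.21 in males, and Lrrk2, a kinase of lamellar bodies, by 1.07 in males and 1.55 in females. The list's median signed difference between the days was 0.09 in males and -0.0017 in females. Over all 13 member probe sets it was 1.18 and 1.25, and over the members by 1 probe set a gene, as in the list, 1.48 and 1.63. The difference between the lists was not tested.

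Of 18 cathepsins and related proteases, 0 were called by flutamide at GD17 and at GD18 (limma), which is near the 3.55% and 3.95% of all probe sets. Between the days 9 were called higher and 0 lower in males, where 12.4% of all were called higher, and 8 higher and 3 lower in females, where 16.5% were. Ctsc, a dipeptidyl peptidase, rose by 0.84 in males and 1.07 in females, and Ctso by 0.68 in each. The lysosomal peptidase Tpp1 rose by 0.43 in males and Ctss by 0.70. Of 14 lysosome membrane and lipid export genes, 7 were called higher in males and 8 in females, against the same 12.4% and 16.5%, and 0 lower in either. They included Npc2, a cholesterol carrier, by 0.53 in males, and Scarb2, a lysosomal membrane protein, by 0.44. These changes were smaller than the 1.48 of Ctsh.

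Among 15 related ABC and phosphate transporters, 6 were called higher and 2 lower between the days in males, against 25% of all called in either direction. Abca1 and Abca7, lipid exporters related to Abca3, rose by 0.56 and 0.70. Slc20a1, another sodium-phosphate cotransporter, fell by 0.36 in males and by 0.88 in females (adjusted p = 0.00293 and 4.97e-07), opposite to Slc34a2. Xpr1, the phosphate exporter, was called higher by flutamide at GD17, by 0.28, and between the days in males, by 0.45.

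Of 21 genes of phosphatidylcholine synthesis and remodelling, 7 were called higher and 1 lower between the days in males, against 25% of all in either direction, and 7 and 3 in females, against 33.6%. Pla2g1b, a secreted phospholipase, rose by 1.01, Lpin1, a phosphatidate phosphatase, by 0.89, and Chpt1, the cholinephosphotransferase of the last step, by 0.37. By flutamide at GD17 Pla2g1b was called higher, by 0.49, and Lpgat1, an acyltransferase, lower, with a difference of -0.33. Over all probe sets 3.55% were called in either direction. Each of 18 regulators of type II cell genes was taken by its probe set of highest mean, and other probe sets were not counted. Of the 18, 0 were called by flutamide at GD17 and at GD18 (limma), near the 3.55% and 3.95% of all probe sets. Between the days in males 11 were called higher and 1 lower, where 25% of all were called in either direction. The transcription factors Tfcp2l1, Cebpa, Cebpd and Klf5 rose by 1.39, 1.32, 1.11 and 0.67 in males.

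**Figure D5:**
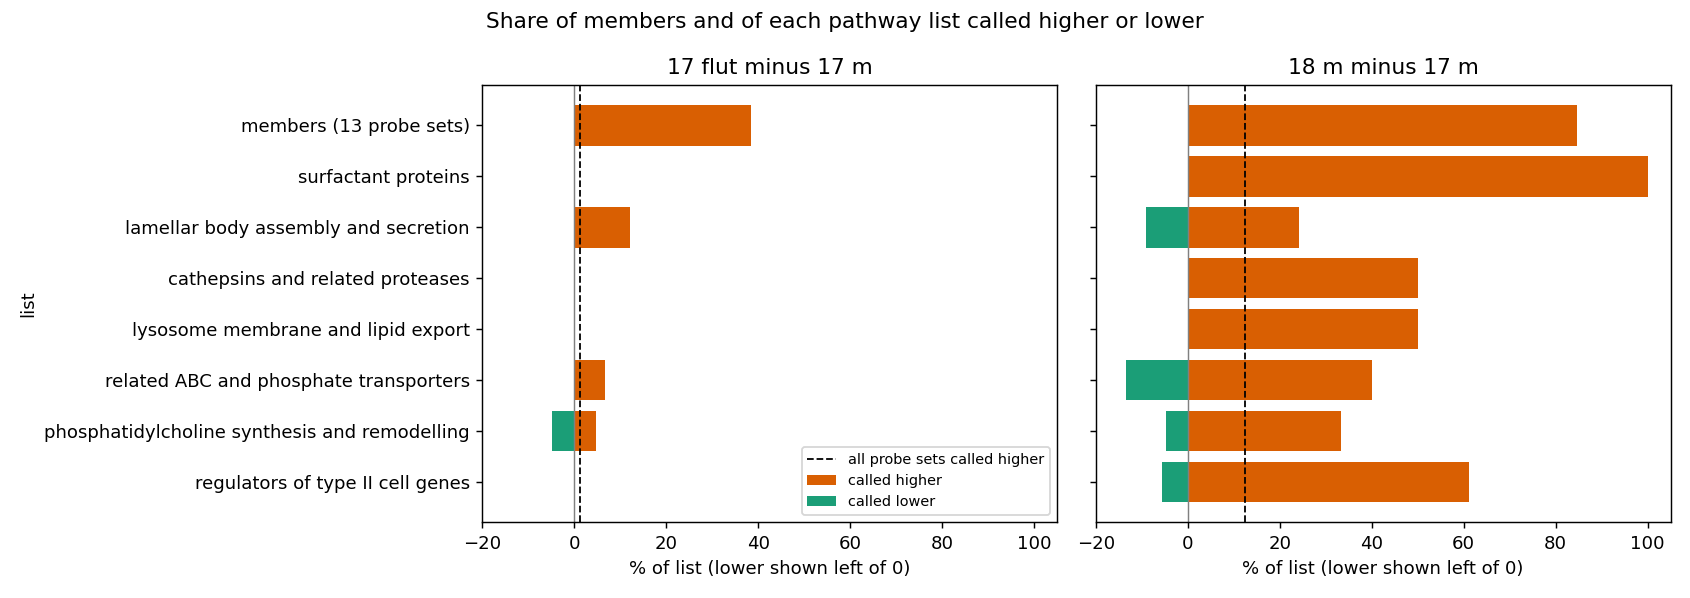
Share of the member probe sets and of each pathway list called higher (right of 0) and lower (left of 0), in percent (x axis), for flutamide at GD17 and for the day change in males. Dashed lines mark the 1.28% and 12.4% of all probe sets called higher.

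Markers of other cells moved with the members to different degrees. At GD17 2 of 10 type II cell genes other than the members, 2 of 7 type I cell genes, 1 of 5 club cell genes and 3 of 6 ciliated cell genes were called higher by flutamide, against 1.28% of all probe sets, and 0 lower. Their medians were 0.27, 0.37, 0.36 and 0.45. Of 10 pan-epithelial genes 0 were called (limma), with a median of 0.01, and of 5 endothelial genes 0, with a median of 0.04. Of 11 macrophage and dendritic cell genes 0 were called, with a median of 0.0049. Of 6 fibroblast genes 3 were called lower, with a median of -0.19, where 3.55% of all probe sets were called in either direction. The mean level of the pan-epithelial list lay between 10.25 and 10.36 in 17 flut and between 10.21 and 10.34 in 17 m. Between the days in males, where 12.4% of all were called higher, 9 of 10 type II, 6 of 7 type I, 5 of 5 club and 6 of 6 ciliated genes were called higher and 0 lower. Of the pan-epithelial genes 5 of 10 were called higher and 2 lower. Of endothelial genes 3 of 5, of fibroblast genes 3 of 6 and of macrophage and dendritic cell genes 3 of 11 were called higher and 0 lower. The part of cell numbers in the member levels was not tested.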

How the data were processed

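Total RNA of fetal lungs was pooled from 3 fetuses per array and hybridized to Affymetrix MOE430 2.0 arrays. The authors extracted the images with GCOS and deposited an intensity for each probe set, background-subtracted, normalized and summarized by RMA; per the labels the processing used limma, with no version given. The deposited values were on a linear scale and their log2 was taken here. Of 45101 probe sets, 64 AFFX controls were left out. The platform annotation of 2016 gave 1 symbol to 34945 of the others, several to 932 and none to 9160, and no value was given to a gene through a probe set with several.

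A model with a mean for each of 6 groups was fitted to 18 arrays with limma 3.58.1 in R 4.3.3 (12 residual degrees of freedom, eBayes), with Benjamini-Hochberg adjustment over all 45037 probe sets in each comparison, and jsonlite 2.0.0 for reading. The fit was tested on simulated data. Where 1 value stands for a gene, it is that of the probe set of highest mean. Named beside the members were all surfactant proteins, up to 4 called genes of smallest p per list and comparison, and the 10 genes most like the members. Members and lists were chosen with earlier results of these data known. Promoter windows were taken from RefSeq (GRCm38.p6) and searched for exact matches.

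Deviations of pools with the same replicate number correlated between -0.32 and 0.37. Pools with different numbers were not set beside them, so whether the numbers pair the pools is not settled. The alternatives were arrays centred on their medians, dim probe sets left out, array weights, the compared groups only, a replicate block, 5 pools left out together and each pool left out in turn. The number of arrays limits the precision, and no 2 arrays were identical.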

Additional observations from a re-analysis of the deposited data

How the results depend on the processing

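Of 660 values of the 5 genes under the alternatives, 576 kept their sign and side of the threshold, 51 lost the call and 8 gained it. The other 25 changed sign, 13 of the GD17 sex difference and 12 of the interaction of sex and day, and none of these was called in either fit. For the day change the count of called probe sets was 9 to 12 in males (11), 10 to 13 in females (13) and 9 to 10 in flutamide-treated males (10). Without the 5 pools that stood apart it was 9 in males and 10 in flutamide-treated males. For flutamide at GD17 (5 called) the count was 1 with the compared groups only, 1 with the replicate block, 3 without the 5 pools that stood apart and 1 to 7 with 1 pool left out. With the replicate block the adjusted p was 0.0504 for Napsa, 0.0614 for Ctsh, 0.0601 for Slc34a2 and 0.0504 for Lpcat1 (limma). Whether the numbers pair the pools is not known. Napsa, Ctsh and Slc34a2 each lost the call in 8 of 12 alternatives and Lpcat1 in 7, with adjusted p up to 0.165. For flutamide at GD18 (0 called), array weights gave 3 and 1 pool left out 0 to 1 (1 without 18 m 3). For sex, array weights gave 1 at GD17 and 2 at GD18, where 1 pool left out gave 0 to 1 (1 without 18 m 3). For flutamide-treated males against females at GD17 (6 called), array weights gave 11, the compared groups only 10 and the replicate block 3. Leaving out 1 pool gave 0 to 6, with 0 without 17 flut 1, 17 f 2 or 17 f 3. It gave 1 without 17 flut 2 or 17 flut 3. For the interaction of flutamide and day 1 pool left out gave 0 to 1 (1 without 17 m 2). For that of sex and day it gave 0 to 2 (1 without 17 m 3, 2 without 18 m 3), and array weights gave 2. The share over all probe sets was counted only without 17 m 2 and without the 5 pools together. The other counts of this section therefore cannot be set against the whole array. Only 3 pools a group, and their spread at GD17, limit what could be seen.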

Other observations

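The probe set 1417057_a_at is annotated to both Lamp3 and Ppid, a ubiquitous cyclophilin gene, so its signal belongs to neither alone. It measured 11.57, 11.58 and 11.58 in 18 m, against 10.75, 10.93 and 10.68 in 17 m, and 11.61, 11.56 and 11.45 in 18 f, against 10.94, 10.82 and 10.80 in 17 f. The difference between the days was 0.79 in males (adjusted p = 9.31e-06) and 0.68 in females (adjusted p = 1.07e-05). By flutamide at GD17 it was 0.09 (adjusted p = 0.599), with 10.85, 10.90 and 10.87 in 17 flut. How much of either gene it reports was not tested.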
